A study of Mus musculus with 16 samples.

Results

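Donor CD8+ T cells recovered from the ovaries of mice after allogeneic haematopoietic stem cell transplantation were compared with donor CD4+ T cells recovered from the same organ. The comparison used every array titled Ovary_CD8_Allo (4 arrays) and every array titled Ovary_CD4_Allo (2 arrays), which are 6 of the 16 one-colour expression arrays of a study on what donor T cells do to the ovary in graft-versus-host disease. The other 10 arrays hold splenic CD4 and CD8 cells of allogeneic and syngeneic recipients and are used below as a setting for the ovarian differences. All samples are labelled female with a C57BL/6 strain background. Both ovarian groups share the allogeneic transplant, the tissue, the female sex and the handling: a small number of cells was sorted and sorted again into Trizol, and the RNA was amplified and labelled with Cy3 by a kit for low input. The strains of donor and recipient, their age, the conditioning and the day of collection are not given in the sources used here. There is no ovarian group from syngeneic recipients among the samples analysed, so the subset difference in ovary cannot be set against an ovary without an alloreaction. The labels do not say whether the replicates came from separate animals or from pools, so the p-values cover the spread among these arrays alone, and that spread may be technical.

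CD4 and CD8 T cells leave the thymus as separate lineages. The factor ThPOK, encoded by Zbtb7b, holds the helper fate, and RUNX3 holds the cytotoxic fate and silences Cd4. CD8 cells recognise peptides on class I molecules and kill through perforin, granzymes and FAS ligand, while CD4 cells recognise class II molecules, help other cells through cytokines and include the regulatory cells that depend on FOXP3. In graft-versus-host disease donor T cells of both lineages respond to recipient antigens and enter recipient organs.

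Values are log2 processed signals relative to the 75th percentile of the same array, so 0 is the signal of a spot at that percentile and 1 unit is a doubling. Levels of different genes come from different probes and are not compared. A difference is CD8 minus CD4 on that log2 scale, given with its standard error from a limma model fitted to all 16 arrays. A gene is said to be higher or lower, or called, only where the p adjusted by Benjamini-Hochberg over 24103 features fell below 0.05. Of these features 12754 carry a gene symbol. Of the 4224 features called, 4192 had all CD8 arrays on one side of both CD4 arrays, against 48.1% of all features. Statements below that the subsets of a called gene were separated or did not overlap therefore add little to the call. A feature was tested where all arrays of at least one ovarian subset had its signal well above background. A feature that passed through 1 subset alone was tested because it was bright there, so the filter favoured its direction.

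The ovarian CD4 arrays were dimmer than the CD8 arrays. The 75th percentile of the signal was 133 and 68.2 units in CD4 replicates 1 and 2, against 338, 343, 190 and 311 in CD8 replicates 1 to 4, and 50.1% and 43.1% of spots were well above background, against 54.7% to 56.7%. Among the splenic groups the allogeneic CD4 arrays were dim as well (141 and 67.6), while the syngeneic CD4 arrays were not (316 and 181). Of the tested features, 1287 were above background on every CD8 array and on 0 CD4 arrays, and 63 showed the reverse. Across features, which are not independent replicates, arrays correlated with r = 0.971 to 0.997 within CD8, 0.970 within CD4 and 0.930 to 0.964 between the subsets. Both groups lay on both slides (slide 1 held CD4 replicate 1 and CD8 replicates 1 and 2, slide 2 the others). The part of signal brightness in the differences was not tested beyond the settings given in the closing section. In sorted cell RNA, fewer cells that express a gene and less of its RNA per cell cannot be told apart.

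Transcripts of macrophages moved with the CD4 label. Of 18 tested genes of a list of macrophage and monocyte markers, 0 were higher and 16 were lower in CD8, with a median difference of -3.85, against 0.11 over all features tested. For reference, 17.5% of all features were called, 8.82% higher and 8.71% lower in CD8. Gene lists hold only features with a symbol, and 20.9% of those were called. The summed signal of the list was 7.71 and 8.57 on CD4 replicates 1 and 2 and 6.29 to 6.70 on the CD8 arrays. Apoe, an apolipoprotein secreted by macrophages, measured 1.19, 1.59, 1.56 and 1.55 on the CD8 arrays and 4.73 and 5.92 on the CD4 arrays. Its difference was -3.85 ± 0.38 (adjusted p = 5.19e-05). C1qb, a chain of complement C1q, measured -1.32, -1.24, -1.11 and -1.27 in CD8 and 1.76 and 2.61 in CD4, a difference of -3.42 ± 0.31. Lyz2, a myeloid lysozyme with a close paralog, above background on 3 of 4 CD8 arrays, differed by -3.85 ± 0.44, and Ms4a7, a macrophage membrane protein, by -3.75 ± 0.55. For each of these genes all CD4 values lay above all CD8 values, and CD4 replicate 2 was the higher of the pair. Leaving out 1 array at a time gave 11 to 17 lower genes, with 11 without CD4 replicate 2. Splenic CD8 cells were also lower than splenic CD4 cells for 17 of these 18 genes in allogeneic recipients, where 29.6% of all features were called, 15.3% higher and 14.3% lower. In syngeneic recipients 8 were lower, with 3.42% of all features called, 1.09% higher and 2.33% lower.

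Class II antigen-presentation genes followed the same arrays. H2-Eb1, a class II beta chain, measured 3.88, 4.37, 4.10 and 4.37 in CD8 and 6.58 and 6.96 in CD4, a difference of -2.59 ± 0.46 (adjusted p = 0.00312). Cd74, the invariant chain that escorts class II molecules, differed by -3.06 ± 0.43, H2-Ab1, another beta chain, by -2.45 ± 0.56, and H2-Aa, an alpha chain, by -2.19 ± 0.44. All 4 were separated between the subsets, but without CD4 replicate 2 H2-Aa and H2-Ab1 were no longer called (adjusted p = 0.0761 and 0.0978). In allogeneic spleen the corresponding differences were 0.10 for H2-Aa, 0.60 for H2-Ab1, -0.92 for H2-Eb1 and -1.08 for Cd74, none of them called, and the difference between the tissues was not called for any of the 4 (adjusted p = 0.251 to 0.375). Of the wider dendritic-cell list, 1 of 14 tested genes was higher (Itgax) and 4 were lower, these 4 class II genes. Without CD4 replicate 2 the counts were 0 and 2, without replicate 1 they were 0 and 5, and the call of Itgax ended without either (adjusted p = 0.103 and 0.0965).

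Markers of other cells were less uniform. In the B-cell, theca and stromal lists the share called was near or below the 20.9% among all features with a symbol. Among B-cell markers 1 of 7 tested was lower, Cd74, and 10 further members failed the background filter or had no named probe. Its summed signal was 4.78 and 5.19 in CD4 and 2.52 to 2.89 in CD8. Of 8 granulosa-cell markers tested, Cyp19a1, the aromatase, was higher and Foxl2 and Wt1 were lower, and without CD4 replicate 2 only Cyp19a1 was called. The call of Cyp19a1, which was below background on both CD4 arrays, ended without CD4 replicate 1 (adjusted p = 0.295) and without any 1 CD8 array (0.0557 to 0.0784). With all signals raised to a common floor of -2.5, the Cyp19a1 difference was 0 and was not called. Under that floor Wt1 differed by -0.24 and was not called either (adjusted p = 0.062). A further Foxl2 probe gave -0.28 and was not called (adjusted p = 0.742). Without CD8 replicate 1 the list had 0 higher and 4 lower genes. That array stood apart for Inha and Inhbb, inhibin subunits named here after their values were seen: Inha measured 0.51 on it and -6.20 to -4.31 on the other CD8 arrays, and Inhbb 0.31 against -5.95 to -4.40. Of 9 theca and luteal markers, Nr5a1 and Scarb1 were lower, with calls that ended without single arrays of either group (adjusted p up to 0.181 and 0.174), and with quantile normalization 1 gene of that list was higher and 0 lower. Of 9 stromal and endothelial markers, Col1a1, a collagen, was higher and Pecam1, an endothelial adhesion molecule, lower. The first call ended without CD4 replicate 2 (adjusted p = 0.0783) and the second without either CD4 array (0.0805 and 0.0699). With the common floor Col1a1 differed by 0.12 and was not called (adjusted p = 0.567), while Pecam1 stayed called (adjusted p = 0.00915). The oocyte list had 1 tested gene, Gdf9, named here after its values were seen, which limma did not call (adjusted p = 0.487, unadjusted p = 0.296) in any setting tried, and 10 of its 12 genes were not above background on any ovarian array. Of 3 erythroid and platelet markers tested, Pf4, a platelet chemokine also made by macrophages, was lower, a call that ended without CD4 replicate 2 (adjusted p = 0.251) and without CD8 replicate 1, 2 or 4. In the NK-cell list 5 of 8 genes were higher and 2 lower, with fewer calls without CD4 replicate 2. Several of these genes are also expressed by activated CD8 cells, and Klre1 and Klra4 passed the filter only through the CD8 arrays.

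**Figure D1:**
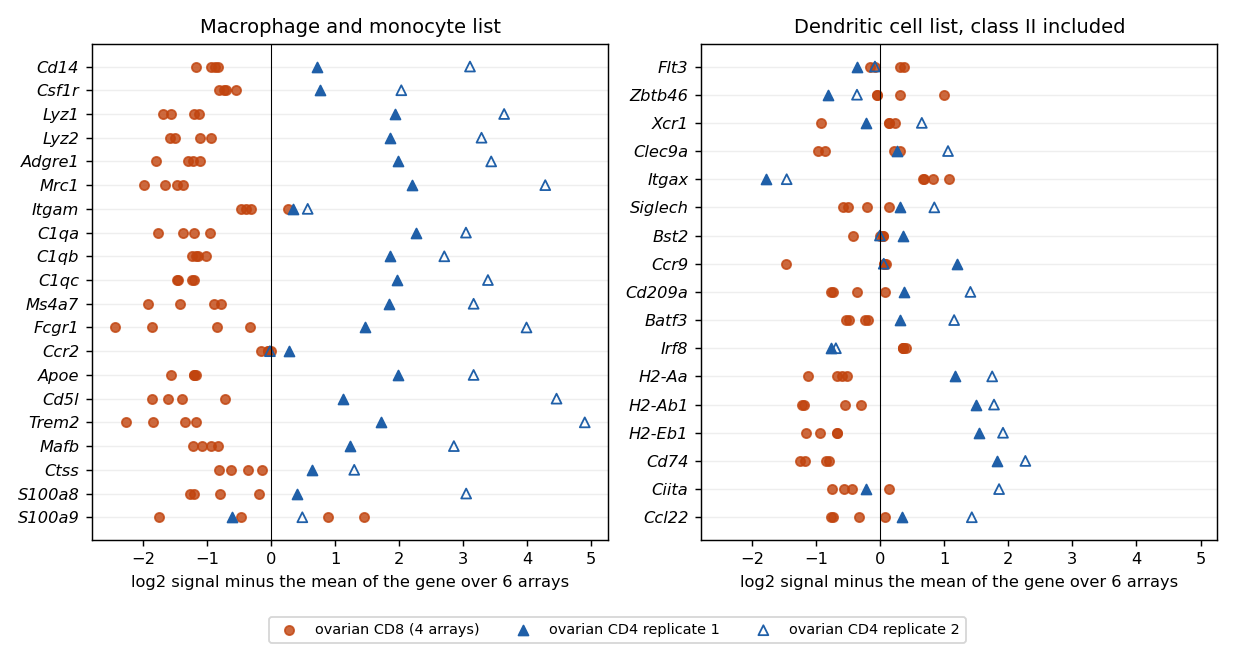
Macrophage and dendritic-cell markers on each ovarian array. Each row is a gene on the array, the horizontal axis is its log2 signal minus its mean over the 6 arrays, circles are the 4 CD8 arrays and triangles the CD4 arrays (filled, replicate 1; open, replicate 2). For most macrophage genes and the class II genes both triangles lie to the right of all circles.

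The sort markers followed the labels. Cd8a, which encodes the alpha chain of the CD8 coreceptor, measured 5.72, 5.82, 5.33 and 5.80 on the CD8 arrays and -5.69 and -4.83 on the CD4 arrays. It was not well above background on any CD4 array and was at least 478-fold higher in CD8 (adjusted p = 4.32e-08). Such a bound sets the mean of the brighter group against, on each array of the dimmer group, the lowest signal called well above background. Cd8b1, the beta chain, measured 5.84, 5.78, 5.64 and 5.82 in CD8 and -1.80 and -2.82 in CD4, where 1 of 2 arrays was above background, and the difference was 8.08 ± 0.26 (adjusted p = 9.34e-09). Cd4, the helper coreceptor, measured 2.18, 1.96, 2.07 and 2.03 in CD8 and 5.56 and 5.09 in CD4, a difference of -3.27 ± 0.19 (adjusted p = 1.17e-06). The groups were far apart for all of these genes, but Cd4 was well above background on all 4 CD8 arrays. Within slides 1 and 2 the differences were -3.49 and -3.04 for Cd4. Cd3e, a chain of the T-cell receptor complex shared by both lineages, differed by 0.29 ± 0.19 and was not called (adjusted p = 0.327). Of 19 genes of the receptor complex and pan-T-cell list, 2 were higher (Thy1 and Cd27) and 2 lower (Cd5 and Cd6) in CD8. That share was near the 20.9% called among all features with a symbol. Without CD4 replicate 1 the counts were 3 and 0, without CD4 replicate 2 they were 0 and 1, without CD8 replicate 4 they were 1 and 1, and without any other CD8 array 2 and 1.

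Lineage regulators differed in the directions of the sort. Zbtb7b measured 4.23, 4.23, 4.51 and 4.23 in CD8 and 6.11 and 5.51 in CD4. Its difference was -1.51 ± 0.39 (adjusted p = 0.0197), with no overlap, but with 1 CD4 array it was not called (adjusted p = 0.124 without replicate 1 and 0.0545 without replicate 2). Runx3 measured 2.91, 2.94, 2.87 and 2.99 in CD8 and 1.97 and 2.04 in CD4, a difference of 0.93 ± 0.17 (adjusted p = 0.00327). A further Runx3 probe gave 0.12 and was not called (adjusted p = 0.689). Gata3, a factor of CD4 development and type 2 responses, measured 3.56, 3.55, 3.80 and 3.55 in CD8 and 4.55 and 4.67 in CD4, a difference of -0.99 ± 0.18. Eomes, a T-box factor of cytotoxic cells, measured 5.36, 5.21, 5.71 and 5.24 in CD8 and 2.40 and 2.83 in CD4, a difference of 2.77 ± 0.22 (adjusted p = 8.68e-06). Each of these genes had separated groups. Tbx21, which encodes T-bet, the related factor of type 1 responses, differed by 0.59 ± 0.35 and was not called (adjusted p = 0.271). Of the CD8 lineage list 9 of 10 genes tested were higher and 0 lower, and the tenth was the chemokine Ccl5. Cd8a, Cd8b1 and Klrk1 passed the filter only through the CD8 arrays, and Cd8a and Cd8b1 are the sort markers themselves. With a filter for all ovarian arrays 6 genes of this list were higher and 0 lower. Of the CD4 and helper list 11 of 13 were lower and 1, Tox, was higher. Without CD4 replicate 1 the last counts were 8 and 1.

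**Figure D2:**
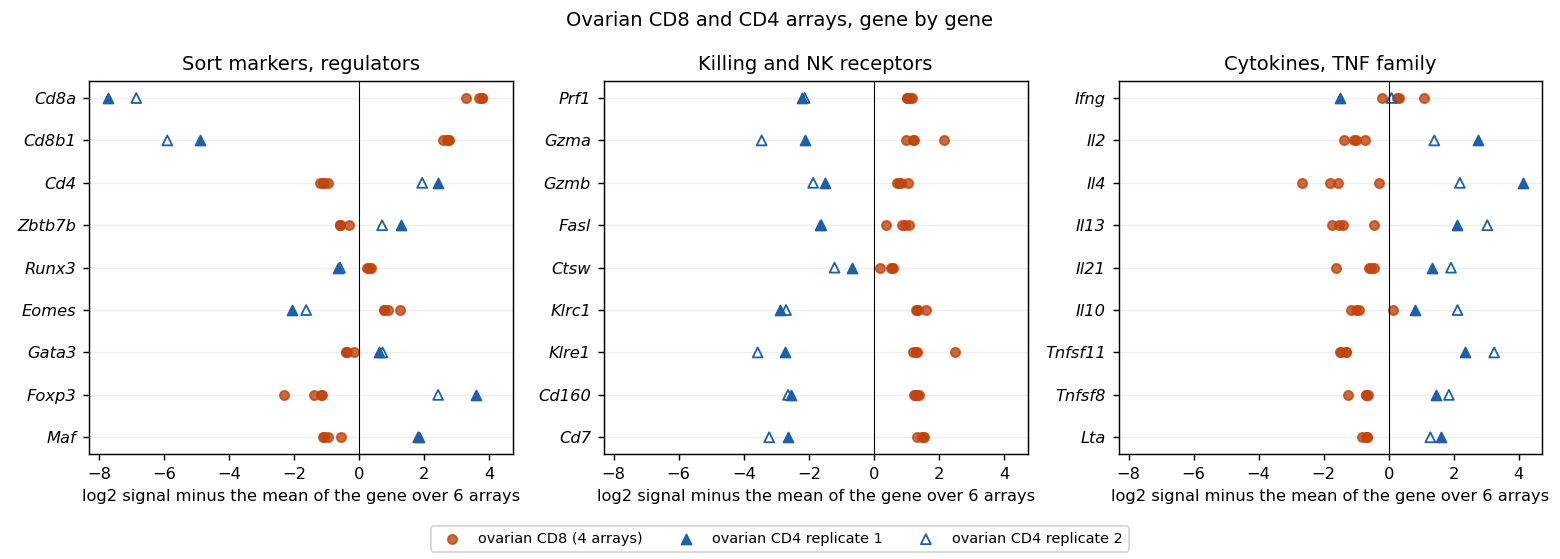
Single genes on each ovarian array, in 3 groups of genes. Each row is a gene, the horizontal axis is its log2 signal minus its mean over the 6 arrays, circles are the 4 CD8 arrays and triangles the CD4 arrays (filled, replicate 1; open, replicate 2). The subsets do not overlap in any row except Ifng.

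Of 17 tested genes of the granule list 8 were higher and 2, Srgn and Lamp1, were lower in CD8, or 4 and 0 without CD4 replicate 2. Prf1, the pore-forming protein perforin, measured 3.64, 3.73, 3.81 and 3.65 on the CD8 arrays and 0.42 and 0.50 on the CD4 arrays. The difference was 3.25 ± 0.16 (adjusted p = 2.46e-07), and it was 3.26 on slide 1 and 3.24 on slide 2. Gzma, a tryptase-like granzyme, measured 7.08, 7.30, 8.23 and 7.27 in CD8 and 3.94 and 2.62 in CD4, a difference of 4.19 ± 0.75 (adjusted p = 0.00322). Gzmb, the granzyme that cleaves caspases, measured 5.51, 5.37, 5.71 and 5.44 in CD8 and 3.18 and 2.80 in CD4, a difference of 2.52 ± 0.41 (adjusted p = 0.00223). Gzma and Gzmb transcripts were thus well above background in both subsets, with the CD8 arrays higher. Gzmc and Gzmm were not called, and Gzme failed the background filter. Gzmd, Gzmf and Gzmg were not above background on any ovarian array. Gzmk, a granzyme of memory-like CD8 cells, differed by 1.55 ± 0.34, the granule membrane protein Nkg7 by 1.62 ± 0.16 and the lymphocyte protease Ctsw by 1.41 ± 0.23. Without CD4 replicate 2 the calls of Gzma and Gzmk ended (adjusted p = 0.0514 and 0.0744).

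Among ligands of the TNF family the subsets were divided. Fasl, the death ligand, measured 4.83, 5.02, 4.32 and 4.92 in CD8 and 2.31 and 2.34 in CD4, a difference of 2.45 ± 0.35 (adjusted p = 0.000733). Lta, lymphotoxin alpha, measured -0.70, -0.73, -0.87 and -0.75 in CD8 and 1.55 and 1.24 in CD4, a difference of -2.16 ± 0.13 (adjusted p = 1.22e-06). Tnfsf11, which encodes RANKL, measured -2.33, -2.38, -2.20 and -2.19 in CD8 and 1.48 and 2.37 in CD4, a difference of -4.20 ± 0.44. Tnfsf8, the ligand of CD30, differed by -2.48 ± 0.24. The arrays of the subsets did not overlap for any of these 4 genes. Tnf differed by -1.12 ± 0.34 (adjusted p = 0.0425), and its call ended without CD4 replicate 2 (adjusted p = 0.427) and without CD8 replicate 1, 2 or 4 (up to 0.0992). Of 12 ligands tested 3 were higher and 5 lower in CD8, and without CD4 replicate 2 the counts were 2 and 3.

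The 250 bases before the start site are given for 3 of these genes, 1 for each role: Cd8a as the coreceptor that marks the sort, Prf1 as a killing gene higher in CD8, and Lta as a ligand higher in CD4. They come from RefSeq, build GRCm38.p6, and lie at chr6:71373177-71373426 (plus strand, Cd8a), chr10:61297586-61297835 (plus strand, Prf1) and chr17:35205352-35205601 (minus strand, Lta). Each is printed 5′ to 3′ on the strand of its gene. Capitals mark matches to the RUNX motif TGTGGT, the T-box motif AGGTGTGA or the GATA motif AGATAA, or to their reverse complements.
Cd8a: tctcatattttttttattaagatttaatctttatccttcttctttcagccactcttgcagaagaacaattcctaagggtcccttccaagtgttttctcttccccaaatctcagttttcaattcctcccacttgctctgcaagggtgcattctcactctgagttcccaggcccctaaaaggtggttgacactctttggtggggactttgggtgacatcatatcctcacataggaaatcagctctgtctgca
Prf1: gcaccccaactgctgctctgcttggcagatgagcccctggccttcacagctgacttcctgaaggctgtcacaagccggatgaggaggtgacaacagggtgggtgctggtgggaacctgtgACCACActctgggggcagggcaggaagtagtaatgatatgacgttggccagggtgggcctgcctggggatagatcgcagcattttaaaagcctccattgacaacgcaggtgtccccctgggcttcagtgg
Lta: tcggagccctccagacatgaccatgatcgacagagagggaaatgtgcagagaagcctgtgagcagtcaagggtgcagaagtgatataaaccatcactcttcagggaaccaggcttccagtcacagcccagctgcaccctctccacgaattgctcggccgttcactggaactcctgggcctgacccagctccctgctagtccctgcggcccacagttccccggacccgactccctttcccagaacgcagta

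The Prf1 window holds 1 RUNX match, on the reverse strand (ACCACA), and the windows of Cd8a and Lta hold 0 matches to any of the 3 motifs. Over the genes with a sequence, the RUNX motif was present in 12.4% of 1179 genes higher in CD8, in 14.4% of 916 genes lower in CD8, in 11.2% of 10207 genes tested and in 14.2% of all 27025 genes of the table. The T-box motif was present in 0.763%, 0.873%, 0.872% and 1.14% of the same sets, and the GATA motif in 6.02%, 7.31%, 6.58% and 10.3%. These shares are descriptions of letters in a window, both strands searched, and a match is not a site.

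Receptors first described on natural killer cells were mostly higher in CD8. Klrc1, which encodes the inhibitory receptor NKG2A, measured 1.38, 1.41, 1.67 and 1.35 in CD8 and -2.84 and -2.65 in CD4, a difference of 4.20 ± 0.48 (adjusted p = 0.000171). Klrd1, the CD94 chain that pairs with it, measured 4.54, 4.68, 4.54 and 4.69 in CD8 and 2.06 and 2.59 in CD4, a difference of 2.29 ± 0.23. Klre1, a lectin-like receptor, was at least 11.8-fold higher, and Klrk1, the activating receptor NKG2D, at least 3.11-fold higher, both being below background on the CD4 arrays. The call of Klrk1 ended without CD4 replicate 1 (adjusted p = 0.0524). Klra8, a Ly49 receptor, differed by 2.41 ± 0.29. The Klr and Ly49 genes are near-identical copies in places, and a probe may read more than 1 of them. Klre1 and Klrk1 passed the filter only through the CD8 arrays. Of 18 such receptors and adaptors tested 10 were higher and 3 lower, the 3 being Fcer1g, Tyrobp and Fcgr3, adaptors and a receptor that macrophages also express. Without CD4 replicate 2 the counts were 8 and 1.

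Inhibitory receptors were more often higher than lower in CD8. Pdcd1, which encodes PD-1, measured 7.0, 7.04, 6.51 and 7.0 in CD8 and 5.52 and 5.14 in CD4, a difference of 1.56 ± 0.30 (adjusted p = 0.0049). Havcr2, which encodes TIM-3, measured 4.53, 4.55, 4.19 and 4.54 in CD8 and 1.39 and 1.84 in CD4, a difference of 2.84 ± 0.57 (adjusted p = 0.00562). Cd160, a receptor of the immunoglobulin family, measured 1.24, 1.33, 1.28 and 1.42 in CD8 and -2.53 and -2.62 in CD4, a difference of 3.89 ± 0.41. The subsets were separated for each of these. Lag3, a receptor for class II molecules, differed by 2.29 ± 0.57 and Tigit, a receptor for nectins, by 0.84 ± 0.19. Ctla4, which competes with CD28 for its ligands, measured 1.25, 1.14, 1.82 and 1.09 in CD8 and 2.49 and 2.79 in CD4, and the difference of -1.31 ± 0.44 was not called (adjusted p = 0.0582), though it was without CD8 replicate 3 (adjusted p = 0.0472). Of 18 inhibitory receptors 9 were higher and 3 lower. Only 1 was lower without CD4 replicate 1 or CD8 replicate 1, 2 or 4. Without CD4 replicate 2 the counts were 4 and 1, and Pdcd1, Lag3 and Tigit were not called (adjusted p = 0.0623, 0.155 and 0.159). Cd7, a coreceptor of activated lymphocytes, measured 5.98, 6.03, 5.84 and 6.06 in CD8 and 1.89 and 1.29 in CD4, a difference of 4.38 ± 0.30 (adjusted p = 2.97e-06).

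Cytokine genes were mostly lower in CD8. Il2, the T-cell growth factor, measured -3.70, -3.62, -3.34 and -3.99 in CD8 and 0.12 and -1.23 in CD4, a difference of -3.11 ± 0.45 (adjusted p = 0.000815). Il4, the defining cytokine of type 2 helper cells, was not above background on any CD8 array and was at least 10.2-fold lower in CD8 (adjusted p = 0.00052), or at least 5.19-fold and 20-fold lower without CD4 replicate 1 and 2. With all signals raised to a common floor of -2.5, its difference was -1.27 and was not called (adjusted p = 0.0618). Il13, a type 2 effector cytokine, measured -2.74, -3.06, -1.78 and -2.86 in CD8 and 0.77 and 1.70 in CD4, a difference of -3.85 ± 0.48. Il21, a helper cytokine for B cells, measured 0.94, 0.85, -0.22 and 0.78 in CD8 and 2.73 and 3.31 in CD4, a difference of -2.43 ± 0.42. No CD8 array reached the lower CD4 array for these 4 genes. Il10, an inhibitory cytokine, differed by -2.20 ± 0.53 and Csf2, which encodes GM-CSF, by -1.84 ± 0.38, and both calls ended without CD4 replicate 2 (adjusted p = 0.193 and 0.101). Ifng, the type 1 effector cytokine, measured 6.71, 7.23, 8.02 and 7.17 in CD8 and 5.42 and 7.01 in CD4. Its arrays overlapped, and the difference of 1.07 ± 0.57 was not called (adjusted p = 0.22). Of 19 cytokines tested 1 was higher and 10 lower, or 0 and 7 without CD4 replicate 2. With a filter for all ovarian arrays 0 cytokines were higher and 8 lower. The list includes genes that macrophages also make, and the summed macrophage signal was 7.71 and 8.57 in CD4 against 6.29 to 6.70 in CD8. The part of those cells in the cytokine values was not tested. In allogeneic spleen 8 of these 19 genes were lower, with Il2 at -3.33, and Il10, at 0.00, was not among them.

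Regulatory T-cell and type 2 genes were mostly lower in CD8, while follicular helper genes were mixed. Foxp3, the factor of regulatory T cells, measured -1.26, -1.04, -2.19 and -1.01 in CD8 and 3.72 and 2.56 in CD4, a difference of -4.52 ± 0.38 (adjusted p = 1.84e-05). Lrrc32, which encodes GARP and tethers latent TGF-beta, measured -2.37, -2.15, -2.68 and -2.06 in CD8 and 3.78 and 2.31 in CD4, a difference of -5.36 ± 0.42. Il2ra, the alpha chain of the IL-2 receptor, differed by -2.38 ± 0.37, and Tnfrsf4, the costimulatory receptor OX40, by -2.92 ± 0.31. The subsets were separated for all 4 genes, which fixes the sign on each slide. Capg, an actin-capping protein, differed by -2.11 ± 0.18. Of 17 regulatory T-cell genes 12 were lower and 2 higher (Entpd1 and Tigit), or 9 and 0 without CD4 replicate 2 and 9 and 1 without replicate 1. Maf, a factor of helper cells, measured 1.13, 1.01, 1.51 and 0.97 in CD8 and 3.92 and 3.89 in CD4, a difference of -2.75 ± 0.30. Pparg, a nuclear receptor of type 2 and regulatory cells and of macrophages, differed by -2.33 ± 0.27. Ccr4, a chemokine receptor of type 2 and regulatory cells, was at least 23.9-fold lower in CD8. Bcl6, on the follicular helper list, measured 1.58, 1.77, 0.88 and 1.71 in CD8 and 2.13 and 1.83 in CD4 and was not called. Cxcr5, Ascl2 and Cd200 of that list were not called either. Of 14 type 2 genes 9 were lower and 1 was higher, and of 15 follicular helper genes 6 were lower and 2 higher (Pdcd1 and Sh2d1a). Without CD4 replicate 2 these counts were 8 and 0, and 6 and 0, and without CD8 replicate 1, 2 or 4 no type 2 gene was higher and 8 were lower. Ramp3 and Ramp1, which encode accessory chains of the receptors for adrenomedullin and calcitonin gene-related peptide, differed by -5.04 ± 0.34 and -3.01 ± 0.22. A further Ramp1 probe gave -0.36 and was not called (adjusted p = 0.461).

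Genes of naive and memory states were lower in CD8 more often than higher. Tcf7, the factor TCF-1 of naive and stem-like cells, measured 0.76, 0.62, 0.96 and 0.56 in CD8 and 2.61 and 2.47 in CD4, a difference of -1.81 ± 0.13 (adjusted p = 6.03e-06). Il7r, the receptor chain for the survival cytokine IL-7, measured 2.17, 2.20, 1.93 and 2.06 in CD8 and 4.47 and 3.49 in CD4, a difference of -1.89 ± 0.25. Ccr7, the lymph-node homing receptor, measured 2.16, 1.86, 2.16 and 1.83 in CD8 and 4.16 and 3.11 in CD4, a difference of -1.64 ± 0.24. The CD8 arrays were lower than both CD4 arrays for all 3 genes. Of 22 genes of this list 9 were lower and 3 higher, or 6 and 0 without CD4 replicate 2, 5 and 3 without CD4 replicate 1, and 8 and 1 without CD8 replicate 1, 2 or 4. Tox, a factor of chronically stimulated T cells, measured 5.68, 5.61, 5.70 and 5.57 in CD8 and 4.29 and 4.64 in CD4, a difference of 1.17 ± 0.19 (adjusted p = 0.00175). Of 18 exhaustion and effector factors 2 were higher, Tox and Eomes, and 4 were lower, against 3 and 2 without CD4 replicate 1.

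Chemokine receptors were divided as well. Cxcr6, a receptor of tissue T cells, measured 8.28, 8.31, 8.02 and 8.30 in CD8 and 7.05 and 6.68 in CD4, a difference of 1.36 ± 0.21 (adjusted p = 0.00115). Cxcr4, the receptor for CXCL12, measured -0.59, -0.86, -0.65 and -0.79 in CD8 and 0.80 and 1.23 in CD4, a difference of -1.74 ± 0.20. Neither gene showed overlap between the subsets. Cxcr3, a receptor for interferon-induced chemokines, differed by -0.38 ± 0.30 and was not called (adjusted p = 0.415). Of 17 receptors 4 were higher and 6 lower, and the counts were 1 and 5 without CD4 replicate 1, 1 and 7 without CD4 replicate 2, and 2 and 6 without CD8 replicate 1, 2 or 4. Among 12 chemokines 3 were higher and 4 lower, or 1 and 4 without CD4 replicate 1 and 1 and 2 without CD4 replicate 2. Ccl3, an inflammatory chemokine, differed by 2.14 ± 0.42 and Ccl4, its close relative, by 2.32 ± 0.55. The call of Ccl3 ended without CD4 replicate 1 (adjusted p = 0.0566), and that of Ccl4 without either CD4 array (adjusted p = 0.0753 and 0.0689). Ccl7, a monocyte attractant, measured -3.53, -3.05, -3.18 and -3.12 in CD8 and 0.61 and 3.16 in CD4, a difference of -5.11 ± 0.61. It was highest on CD4 replicate 2, where the macrophage list was also highest, and the part of macrophage RNA in it was not tested. Of 19 residency and integrin genes 4 were higher and 1 lower, or 1 and 1 without CD4 replicate 1, 3 and 0 without CD4 replicate 2, 4 and 0 without CD8 replicate 1, 2 or 4, and 4 and 2 without CD8 replicate 3.

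Cell-cycle genes leaned to the CD8 side. Of 34 tested 18 were higher and 0 lower, with a median difference of 0.81. Stmn1, a microtubule regulator of dividing cells, measured 6.93, 6.84, 6.78 and 6.75 in CD8 and 5.73 and 5.90 in CD4, a difference of 1.01 ± 0.20 (adjusted p = 0.00545). Cenpe, a kinetochore motor, differed by 1.17 ± 0.22 and Ccnb2, a mitotic cyclin, by 0.79 ± 0.17. The arrays did not overlap for these 3, but Ccnb2 was not called without CD4 replicate 1 (adjusted p = 0.0736). Mki67, the proliferation antigen, differed by 0.71 ± 0.24 and was not called (adjusted p = 0.0569). A further Mki67 probe was (0.74, adjusted p = 0.0343), and the first was called in 6 of 22 other settings. With quantile normalization 8 were higher, with normexp before it 11, with no filter 6, beyond a 2-fold threshold 6 and with the ovarian arrays alone 27, and 0 were lower in each of these. The count also depended on single arrays: it was 4 without CD4 replicate 1, 10 without CD4 replicate 2, 10 without CD8 replicate 1 or 2, 12 without CD8 replicate 3 and 11 without CD8 replicate 4. In allogeneic spleen 30 of the 34 were higher in CD8 and in syngeneic spleen 1 was.

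Other programmes had fewer calls. In the sterol, glycolysis, type 1 and type 17 lists the share called was near or below the 20.9% among all features with a symbol. Their counts are given as values and are not read as results about the programmes. Of 28 interferon-response genes 1 was higher (Irf7) and 6 were lower, or 0 and 5 without CD4 replicate 1, and Oas2, an antiviral synthetase, measured -0.47, -0.48, -0.84 and -0.75 in CD8 and 2.72 and 2.45 in CD4, a difference of -3.22 ± 0.34 (adjusted p = 9.73e-05). Iigp1, a GTPase induced by interferon gamma, differed by -1.49 ± 0.17, and by -3.81 on a further probe. Both were separated between the subsets. Of 23 sterol synthesis and uptake genes 5 were higher and 0 lower, among them Idi1, an isomerase of the pathway, with 0.72 ± 0.17, whose call ended without either CD4 array (adjusted p = 0.0741 and 0.0703). Leaving out either CD4 array left 1 such call, and leaving out CD8 replicate 1, 2 or 4 left 3. Of 21 glycolysis genes 0 were higher and 4 lower, including the hypoxia factor Hif1a with -1.11 ± 0.20, whose call ended without CD4 replicate 2 (adjusted p = 0.0562). That list had 0 calls without CD4 replicate 2, 2 without CD8 replicate 3 and 1 without any other single array. Of 17 receptors of the common gamma chain and IL-2 families 4 were higher and 5 lower, or 3 and 3 without CD4 replicate 1, 1 and 3 without CD4 replicate 2, and 2 and 4 without CD8 replicate 1, 2 or 4. Of 23 regulators of receptor signalling 4 were higher, Cblb, a ubiquitin ligase that restrains activation, with 1.31 ± 0.19 among them, and 2 were lower, with 2 and 1 left without any 1 of the arrays except CD8 replicate 3, which left 3 and 3. The balance of that list turned with the scaling, to 3 higher and 5 lower with quantile normalization and 3 and 7 with normexp before it, and also with the slide as a block (4 and 6), slide 1 alone (3 and 7), the ovarian arrays alone (3 and 5) and array weights (4 and 5). Costimulatory receptors numbered 3 higher and 6 lower of 13, or 3 and 3 without CD4 replicate 1 and 1 and 4 without CD4 replicate 2. Of 18 type 1 regulators 2 were higher, Eomes and Runx3, and 0 lower, and of 10 type 17 and innate-like regulators 1 was higher (Zbtb16) and 1 lower (Ccr6), the first not called without CD4 replicate 2 and the second not without CD4 replicate 1 (adjusted p = 0.0654 and 0.171).

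**Figure D3:**
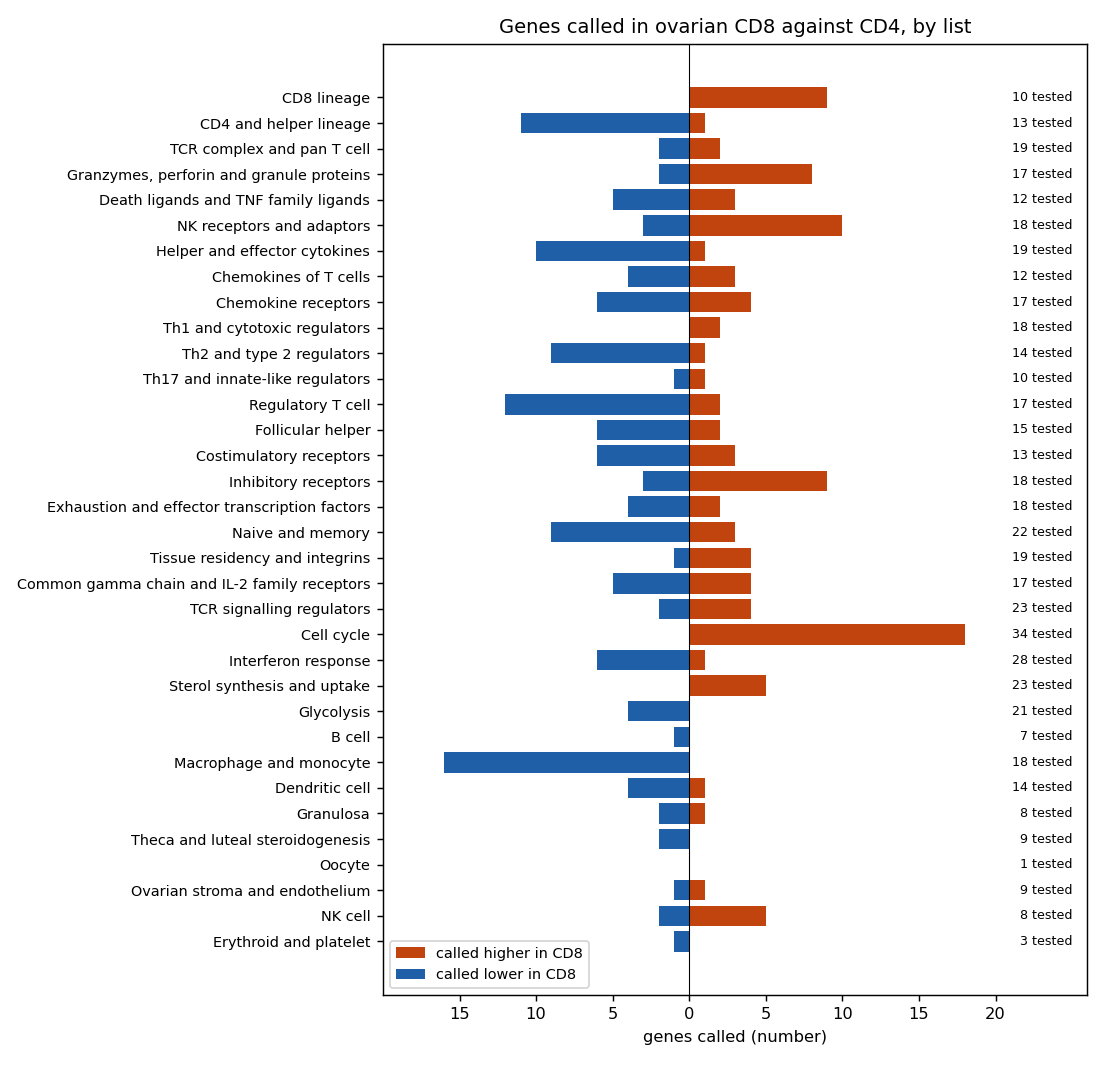
Genes called in ovarian CD8 against CD4 cells in each of the 34 gene lists. Bars to the right count genes higher in CD8 and bars to the left genes lower in CD8, in numbers of genes, with the number tested at the right edge. The macrophage list has 16 lower genes and the cell-cycle list 18 higher ones.

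The largest fitted differences with a symbol included genes with no usual place in T-cell biology. Tmprss6, a membrane protease of liver iron control, was at least 47.1-fold higher in CD8 (adjusted p = 0.000122). Adamts14, a protease that trims procollagen, measured 3.83, 3.94, 3.90 and 3.82 in CD8 and -1.64 and -1.90 in CD4, a difference of 5.64 ± 0.26 (adjusted p = 1.64e-07). A further Adamts14 probe gave 1.71 (adjusted p = 0.0434). Nudt11 and Nudt10, which are near-identical phosphohydrolase genes that a probe may not tell apart, were at least 17.0-fold and 9.20-fold higher. Slc16a11, a monocarboxylate transporter relative, differed by 4.76 ± 0.50. Splenic CD8 cells of allogeneic recipients had mean levels of 2.75 for Tmprss6, 4.57 for Adamts14 and 3.49 for Slc16a11, and those of syngeneic recipients had -5.98, 0.89 and -3.90. Gcg, the glucagon gene, measured -6.08, -5.73, -4.64 and -5.07 in CD8 and 2.05 and 2.57 in CD4. It was at least 119-fold lower in CD8 (adjusted p = 1.64e-07), with all 4 CD8 arrays below background. Splenic CD4 cells of allogeneic recipients had a mean of 2.09 for the same probe and those of syngeneic recipients -5.69.

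Several of the other large falls were in genes that macrophages are known to express, and their CD4 values were far apart. Fn1, fibronectin, measured -0.72 and 4.24 on CD4 replicates 1 and 2 and was below background in CD8. It was at least 79.1-fold lower in CD8, or at least 14.2-fold lower without CD4 replicate 2 and 440-fold without replicate 1. Arg1, an arginine-degrading enzyme of macrophages, measured -3.14 and 1.95 in CD4 and was at least 15.9-fold lower in CD8, or at least 2.71-fold and 92.7-fold lower without CD4 replicate 2 and 1. Retnla, a secreted protein of alternatively activated macrophages, measured -1.01 and 4.49 in CD4 and was above background on 3 of 4 CD8 arrays, and its difference of -6.12 ± 1.08 was -3.38 without CD4 replicate 2. Saa3, an acute-phase protein, was at least 28.8-fold lower in CD8, or 107-fold without CD4 replicate 1, and its call ended without CD4 replicate 2 (adjusted p = 0.0617), as did that of Slpi, a protease inhibitor (adjusted p = 0.116). CD4 replicate 2 was the higher array for all 5 of these genes. Stab1 and Siglec1, scavenger and sialic-acid receptors of macrophages, gave fitted differences of -5.43 ± 0.54 and -5.20 ± 0.44, with 3 and 1 of the 4 CD8 arrays above background. With the common signal floor of -2.5 these were -3.92 and -2.21, both called (adjusted p = 1.29e-05 and 0.000146). Under that floor the calls of Arg1 and Saa3 ended (-2.226 and -2.765, adjusted p = 0.0919 and 0.0795). Those of Fn1, Retnla and Slpi stayed (adjusted p = 0.0258, 0.0165 and 0.0498). The summed macrophage signal was also higher on CD4 replicate 2 (8.57) than on replicate 1 (7.71), and its part in these falls was not tested. Ccn4, a secreted matrix protein, was at least 57.7-fold lower in CD8, and there CD4 replicate 1 was the higher (1.79 against 0.88).

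In all, 4224 features were called, 2125 higher and 2099 lower in CD8, and 2665 of them carry a symbol (1475 higher and 1190 lower). The difference exceeded 1 log2 unit for 2017 of them. Of the 4224, 4192 had all CD8 arrays on one side of both CD4 arrays, against 48.1% of all features. The same sign on both slides was found for 4216, but such separation already fixes the sign within each slide. With features split by mean signal into 4 equal bins, the share called was 14.0% in the dimmest bin and 18.4%, 18.6% and 19.0% in the others. The direction moved with brightness: from the dimmest to the brightest bin 355, 383, 581 and 806 were higher and 491, 728, 540 and 340 lower in CD8, with median differences from -0.07 to 0.25 in the outer bins. The share called was 20.9% of features with a symbol and 13.7% of those without. With the slide as a block 6006 features were called, with slide 1 alone 3620, and with slide 2 alone (1 CD4 and 2 CD8 arrays) 145. Without CD8 replicates 1, 2, 3 and 4 the counts were 2678, 2630, 4047 and 2694, and without CD4 replicates 1 and 2 they were 3400 and 1627. Of the 134 called genes covered by the rule for named genes, all were called with the slide as a block. All 134 were also separated between the subsets, so their sign on each slide was fixed by that.

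The same subsets were also compared in spleen, on the same features and with other arrays. In allogeneic recipients 7129 features were called, and 2819 of them were called the same way as in ovary, which is 66.7% of the ovarian and 39.5% of the allogeneic splenic calls, with 14 called the opposite way. In syngeneic recipients 824 were called, with 337 the same way (7.98% of the ovarian and 40.9% of the syngeneic calls) and 76 the opposite way. Across the 24103 features the ovarian differences correlated with the allogeneic splenic ones at r = 0.667 and with the syngeneic ones at r = 0.259. These are descriptions: the contrasts share no array, but they share slides and the estimate of each feature's spread, and allogeneic spleen shares the dim CD4 arrays and the macrophage signal. For 3 genes, picked after their values were seen, the sign in syngeneic spleen was opposite to that in ovary. Pdcd1 differed by 1.56 in ovary, 1.51 in allogeneic spleen and -1.94 in syngeneic spleen, Tigit by 0.84, 0.57 (not called) and -2.0, and Fasl by 2.45, 2.54 and -1.81. Their lists were not alike in this: in syngeneic spleen 1 inhibitory receptor was higher and 7 were lower, while 4 granule genes were higher and 1 was lower. The difference between ovary and syngeneic spleen was not tested.

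**Figure D4:**
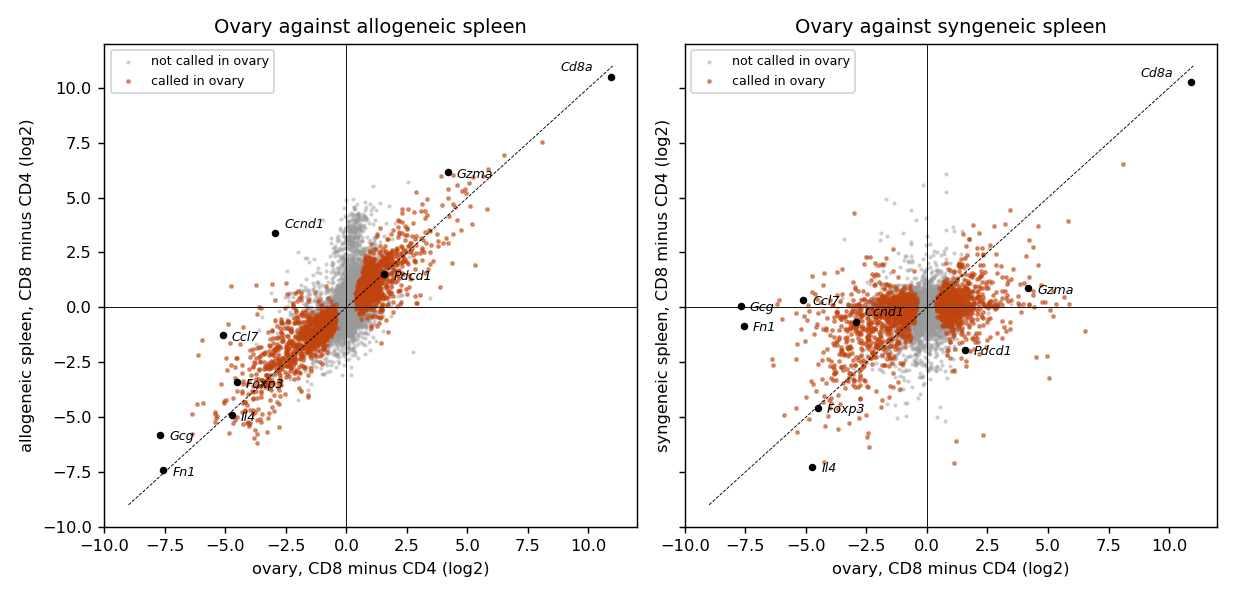
CD8 minus CD4 differences in ovary (horizontal axis, log2) against those in allogeneic spleen (left, vertical axis, log2) and syngeneic spleen (right). Each point is a gene with a symbol, in colour where called in ovary, and the dashed line marks equal differences. Points called in ovary follow the line more closely on the left (r = 0.667 over all features) than on the right (r = 0.259).

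The test of whether the subset difference in ovary differs from that in allogeneic spleen called 9 features (0.0373% of those tested), 5 higher (0.0207%) and 4 lower (0.0166%), and 4 of them carry a symbol. Ccnd1, which encodes the G1 cyclin D1, measured -3.63, -3.02, -2.78 and -3.44 in ovarian CD8 and -1.09 and 0.53 in ovarian CD4. In allogeneic spleen its mean was -1.45 in CD8 (-2.34 to -0.21) and -4.83 in CD4 (-4.84 to -4.83). The fitted subset differences, -2.94 in ovary and 3.38 in spleen, differed by -6.32 ± 0.94 (adjusted p = 0.0498). Both splenic CD4 values lay under the lowest signal well above background on their arrays (-3.95 and -2.50), so the splenic difference was not measured on both sides. The ovarian difference itself was not called without CD4 replicate 2 (adjusted p = 0.142). Glis1, a zinc-finger factor, differed by 2.16 in ovary and 3.95 in spleen, a difference between tissues of -1.79 ± 0.23 (adjusted p = 0.0492). Iqgap3, a scaffold protein of dividing cells, was as dim on the splenic CD4 arrays (-4.96 to -4.81), and its fitted difference between tissues was -2.52 ± 0.37. Zfp202, a zinc-finger gene, was below background on both ovarian CD4 arrays, and its fitted difference between tissues was 2.20 ± 0.33. With all signals raised to a common floor of -2.5, the differences between tissues were 0.14 for Zfp202, -0.21 for Iqgap3 and -3.28 for Ccnd1, and limma called none of these 3 (adjusted p = 0.766, 0.811 and 0.182), while Glis1 stayed at -1.79 (adjusted p = 0.00155). All of these calls lay just under the threshold. Each of the 4 ended without any 1 of the ovarian CD8 arrays (adjusted p = 0.0692 to 0.162) and without splenic CD8 replicate 1 or 2 (0.109 to 0.121), and those of Ccnd1, Iqgap3 and Zfp202 also without splenic CD4 replicate 1 (0.0594 to 0.061). Without ovarian CD8 replicates 1, 2 or 4, or splenic CD8 replicate 1 or 2, limma called 0 features (2291, 2278, 2206, 2049 and 2208 at an unadjusted p under 0.05). Without ovarian CD8 replicate 3, ovarian CD4 replicate 1 or 2, splenic CD4 replicate 1 or 2, or splenic CD8 replicate 3 the counts were 4, 104, 125, 46, 1539 and 61.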

How the data were processed

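Each array held labelled RNA of 1 sample. Per the file headers, Agilent Feature Extraction 11.5.1.1 made the deposited processed intensity of each spot by subtracting background, with no scaling between arrays. The series' value table, deposited by the authors, holds log2 values centred on each probe, and served as an alternative. Here flagged spots were left out, log2 processed signals were taken relative to the 75th percentile of non-control spots on each array, and spots of 1 probe were averaged. Of 55681 probes 27656 were named through RefSeq accessions, and the probe with the highest mean stood for a symbol. limma 3.58.1 (R 4.3.3) fitted the means of 6 groups over 16 arrays, without slide or replicate terms. The number of arrays limits the precision. In a test on simulated data, 100 of 24103 features were changed at each size. Of these, 30% were recovered at 1 log2 unit and 70% at 2, with 2 false calls at each size. The share changed was far below the 17.5% called here, so these rates need not hold for this comparison. The 144 named genes are the 15 largest separated rises and 15 largest falls above background in the higher group, up to 4 called members of each of 34 lists by smallest p, a list of T-cell genes given in any case, and up to 5 genes per direction of the tissue test. Members, lists and rule were chosen with earlier results of these data known. Alternatives covered scaling, background correction, filters, probes, slide, replicate block, variance model and leaving out arrays. The promoter source held no entry for Cd8b1 or Cd4, so no sequence is printed for them.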

Additional observations from a re-analysis of the deposited data

Results flagged for a closer look

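Among the 4 ovarian CD8 arrays, 1 array stood apart for 27 of the 144 named genes (18.8%) by Dixon's ratio, the gap to the nearest array divided by the range of the group. Chance gives a flag in about 1 of 20 groups; over all 12738 symbols with 4 values the share was 14.3% (1819), and 1543 of these came from CD8 replicate 3. For the named genes replicate 3 was the array concerned in 24. The ratios were Nudt11 (0.893), Ppp2r2c (0.852), Cd200r2 (0.848), Ltf (0.856), Slc16a11 (0.879), Klre1 (0.895), Tnfsf8 (0.901), Cd5 (0.929), Ctsw (0.836), Cxcr6 (0.907), Ccr6 (0.838) and Il21 (0.867). For the others they were Pdcd1 (0.914), Havcr2 (0.932), Cdh1 (0.955), Il10ra (0.853), Socs1 (0.853), Hif1a (0.924), Slc16a3 (0.851), Lag3 (0.91), Klrk1 (0.912), Ccl5 (0.849), Zbtb7b (0.991) and Gata3 (0.949). Replicate 4 stood apart for Thy1 (0.841), replicate 1 for Apoe (0.912) and replicate 2 for Zfp202 (0.838). CD8 replicate 3 had the lowest 75th percentile of the 4 (190 units, against 311 to 343). It also shared high signals with CD4 replicate 2, which lay on the same slide, for 2 genes picked after their values were seen. Hba-a1, a haemoglobin chain, measured 3.35 and 2.37 on these arrays and -4.39 to -3.56 on the other ovarian arrays. Fos measured 3.40 and 4.51 against 0.87 to 2.25. The part of these traits in the flagged values was not tested.

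The interaction term of the limma fit (ovary minus allogeneic spleen) was called for 4 genes with a symbol. The fitted values were 2.20 for Zfp202, -6.32 for Ccnd1, -2.52 for Iqgap3 and -1.79 for Glis1, all with adjusted p of 0.0492 to 0.0498. For Zfp202, Ccnd1 and Iqgap3 at least one group was not above background, and with a common signal floor the values were 0.14, -3.28 and -0.21 and were not called (adjusted p = 0.766, 0.182 and 0.811).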

How the results depend on the processing

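Of the 134 called genes with a name, 0 turned direction in any of 22 settings, 24 were called in every setting that tested them, and 77 were with slide 2 alone set aside. Called features numbered 4224 in the report, 2017 beyond a 2-fold threshold, 2601 with no filter on dim probes and 145 with slide 2 alone, which called 30 of the named genes. Leaving out 1 ovarian array gave 1627 to 4047 features and 96 to 128 named genes. All other settings gave 3552 to 6006 features and 100 to 134 named genes. The share of calls that were higher in CD8 was 50.3% in the report, 33.1% with no filter, where the median of all features was -0.495 against 0.107, and 37.9% with slide 2 alone.

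The 9 features of the tissue comparison became 19 with quantile normalization, 28 with normexp before it, 218 with a common signal floor, 1971 with slide 1 alone and 1 with the replicate block. The count was 0 by limma with the series' value table (2795 at an unadjusted p under 0.05), no filter (2753), a filter for all ovarian arrays (2316), array weights (2584), a trended variance (2820) and slide 2 alone (1504). Leaving out 1 array gave 0 to 1539, and leaving out the splenic arrays in turn was added after seeing the data. The cause of these changes was not tested, and the weights stopped short of their convergence tolerance.

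With the replicate number as a block, 4079 features and 125 named genes were called. The deviations of same-numbered arrays from their group means correlated at 0.173 and -0.387. The highest value, 0.518, was between CD4 replicate 2 and CD8 replicate 3, which differ in number and share a slide. With only 2 CD4 arrays, the deviations of 1 are the negative of those of the other. These correlations therefore cannot decide whether the numbers pair the samples. Of 33 gene lists with a call, the number of calls moved by over 1.5 times in 33 with slide 2 alone, 22 without CD4 replicate 2, 12 with no filter, 10 without CD4 replicate 1, 9 beyond a 2-fold threshold and 8 with slide 1 alone, and in 0 to 7 under each other setting. Signal over background limits the dim features, with 14% called in the dimmest of 4 equal bins. Only 2 CD4 arrays, on separate slides and both dimmer than the CD8 arrays, set the spread of that group. Of 28 called genes with a further probe, 0 had it in the opposite direction, and 7 had one that was not called.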
